A study of Mus musculus with 57 samples.

Results

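A set of 9 genes of natural killer (NK) cells and cytotoxic lymphocytes was followed over 57 arrays of mouse blood-forming tissue in 14 groups. They were the receptor genes Klrk1 (NKG2D), Klrd1 (CD94), Klrg1 and Ncr1 (NKp46), the effector genes Gzma, Gzmb, Prf1 and Nkg7, and the cytokine receptor gene Il2rb. These 9 genes of 18165 on the array were measured by 11 of 34842 probe sets that name a single gene, and all 9 passed the filter on low signal. They were chosen by the signals of CA10 leukemic spleen in these same arrays, where Klrk1 had been seen to be high, so the values of that group are given as a description, with no test. The question was whether Klrk1 in CA10 leukemic spleen went with the other NK and cytotoxic genes or stood apart from them.

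NKG2D is an activating receptor of NK cells and of some T cells. It binds stress-induced ligands on infected or transformed cells and signals through the adaptors Hcst (DAP10) and, in mouse, Tyrobp (DAP12). Cytotoxic lymphocytes kill through granules that hold granzymes and the pore-forming protein perforin, the product of Prf1. NK cells depend on interleukin 15, which they receive through a receptor that contains the Il2rb chain (CD122).

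CA10 mice carry the vav-CALM-AF10 transgene and NHD13 mice the vav-NUP98-HOXD13 transgene, and the vav promoter drives expression in blood-forming cells. Spleen came from leukemic CA10 mice (6 arrays), leukemic NHD13 mice (6), CA10 mice without clinical signs of leukemia, called healthy here (5), and wild-type mice (2). Healthy CA10, healthy NHD13 and wild-type mice gave lineage-negative marrow (3 arrays each), whole marrow (3, 3 and 6) and thymus (4, 3 and 7). A further 3 wild-type whole marrows were labelled C57B6, and the strain of the other groups is not in the labels. Leukemic tissue was collected once signs of leukemia had appeared, and wild-type tissue came from litter mates, age-matched where possible. Ages are not in the labels, nor is it stated that arrays came from different mice, so p-values measure only the spread between arrays. Tissue was analysed in bulk, so fewer cells of a type and less RNA per cell cannot be told apart.

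Values are log2 signals as deposited, and a difference of 1 is a 2-fold difference in signal. The number of arrays limits the precision. There were 10 arrays with a narrow range of values (75th percentile 6.90 to 7.15) and 47 with a wide one (7.26 to 7.72), and all spleen arrays were wide. CA10 healthy spleen 1 had a Gapdh signal 2.09 higher at the 3′ than at the 5′ end of the transcript, a sign of degraded RNA. The same measure was 2.95 in NHD13 lineage-negative marrow 3 and 1.36 in C57B6 marrow 2. CA10 healthy spleens 1 and 3 had summed linear signals of myeloid granule genes of 28062 and 24401, against 588 to 2930 in the other 3 healthy spleens and 10789 to 37562 in CA10 leukemic spleens. Their B cell marker sums were 5853 and 4351, against 21028 to 35711 in the other 3. In both lists these arrays labelled healthy were within the range of the CA10 leukemic ones, 949 to 8920 for B cell markers, so most results against CA10 healthy spleen are given with and without them. Among thymuses, wild-type thymus 2 and CA10 thymus 3 had T cell marker sums of 6526 and 10675, the lowest of their groups.

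Promoters are printed for Klrk1, which was high in CA10 leukemic spleen, for Ncr1, the most variable receptor gene there, and for Gzma and Prf1, which were low in NHD13 leukemic spleen. RefSeq (GRCm38.p6) gave a promoter, from 250 bases before to 50 bases after the start, for 6 of the 9 genes; Klrd1, Klrg1 and Il2rb had no entry. Capitals mark matches to the letters AGGTGT (T-box), TGTGGT (RUNX), AGGAAG (ETS) or TTCNNNGAA (STAT), or to their reverse complements, and no motif overlapped another here.
Klrk1 promoter, chr6:129623815-129624114, minus strand: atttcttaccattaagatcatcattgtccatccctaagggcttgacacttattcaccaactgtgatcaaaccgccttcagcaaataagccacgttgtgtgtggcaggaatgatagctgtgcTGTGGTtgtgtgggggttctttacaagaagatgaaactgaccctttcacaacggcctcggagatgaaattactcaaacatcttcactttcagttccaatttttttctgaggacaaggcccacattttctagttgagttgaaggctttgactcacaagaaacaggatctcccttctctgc
Ncr1 promoter, chr7:4337465-4337764, plus strand: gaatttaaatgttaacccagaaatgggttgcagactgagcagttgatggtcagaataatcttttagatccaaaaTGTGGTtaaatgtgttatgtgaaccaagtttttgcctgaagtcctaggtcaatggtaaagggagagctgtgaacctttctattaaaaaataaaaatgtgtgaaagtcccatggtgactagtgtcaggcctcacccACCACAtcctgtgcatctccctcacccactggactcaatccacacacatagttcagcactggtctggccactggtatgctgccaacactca
Gzma promoter, chr13:113100932-113101231, minus strand: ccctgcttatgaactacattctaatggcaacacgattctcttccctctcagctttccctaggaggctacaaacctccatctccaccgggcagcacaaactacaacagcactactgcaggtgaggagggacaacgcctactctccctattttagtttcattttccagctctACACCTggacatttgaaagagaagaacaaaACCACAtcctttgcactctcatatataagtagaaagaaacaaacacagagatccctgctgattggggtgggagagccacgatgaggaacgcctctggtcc
Prf1 promoter, chr10:61297586-61297885, plus strand: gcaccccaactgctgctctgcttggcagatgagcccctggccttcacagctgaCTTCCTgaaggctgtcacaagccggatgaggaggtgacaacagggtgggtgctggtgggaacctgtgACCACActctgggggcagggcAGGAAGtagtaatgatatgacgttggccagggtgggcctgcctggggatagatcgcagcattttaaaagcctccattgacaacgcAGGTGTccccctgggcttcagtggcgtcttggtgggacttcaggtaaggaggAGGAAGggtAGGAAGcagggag
The Klrk1 window held 1 match, to RUNX, at base -129 from the start. The Ncr1 window held 2 matches to RUNX, Gzma 1 each to T-box and RUNX, and Prf1 6 in all, of which 4 were to ETS. Among 32851 mouse promoters of this length, 13.7% held the T-box letters, 16.8% the RUNX letters, 35.4% the ETS letters and 8.3% the STAT letters. A match is a description of the letters and not a binding site.

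Klrk1 was higher in CA10 leukemic spleen than on any array of the other 13 groups. Its signals in the 6 leukemic arrays were 9.42, 9.21, 8.15, 9.97, 8.99 and 9.0, against 7.47, 6.82, 7.36, 6.63 and 6.51 in CA10 healthy spleen. The NHD13 leukemic spleens had 6.34, 7.56, 4.82, 6.39, 6.18 and 6.94, and the wild-type spleens 7.40 and 6.97. All 6 CA10 leukemic arrays lay above every other spleen, and the groups did not overlap. The mean was 9.13 ± 0.60 in CA10 leukemic spleen (SD, n = 6), against 6.96 ± 0.43 in CA10 healthy spleen (SD, n = 5), a difference of 2.17. Without healthy spleens 1 and 3 the difference was 2.47. The lowest CA10 leukemic array, at 8.15, was above the highest of the 51 other arrays, a C57B6 marrow at 7.75.

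**Figure D1:**
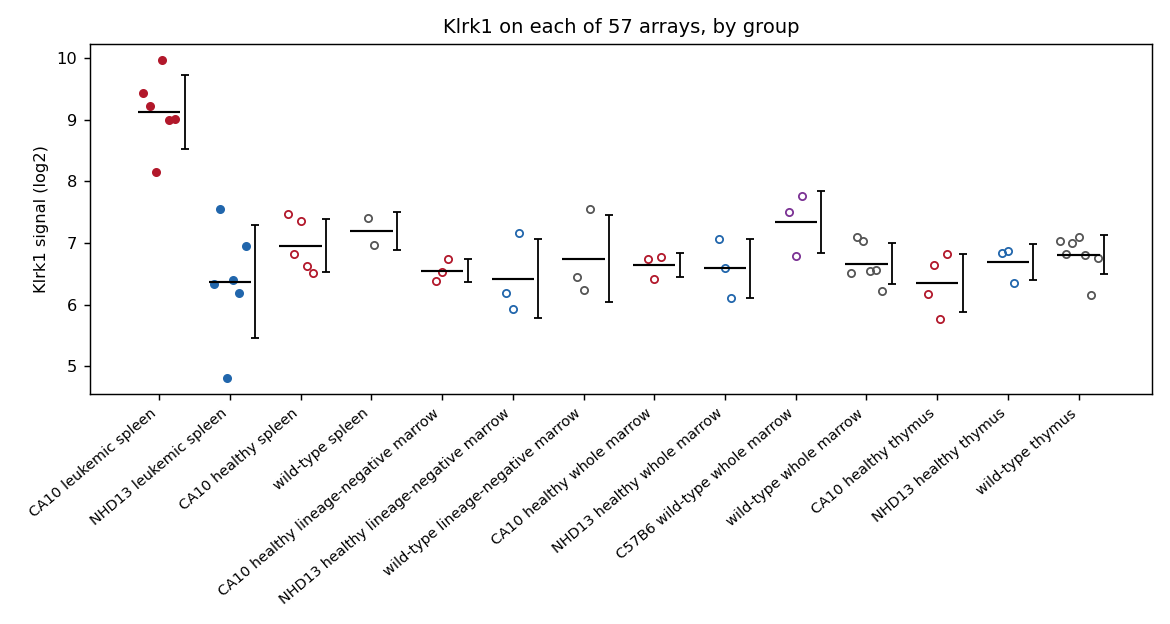
Klrk1 log2 signal (vertical axis) on each of 57 arrays in 14 groups (horizontal axis). Points are arrays, filled for leukemic mice; horizontal lines are group means and bars are SD. The 6 CA10 leukemic spleens lie between 8.15 and 9.97, above all 51 other arrays.

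The order of the group means of Klrk1 was CA10 leukemic spleen (9.13), C57B6 whole marrow (7.35 ± 0.50), wild-type spleen (7.19 ± 0.31), CA10 healthy spleen (6.96), wild-type thymus (6.81 ± 0.31), wild-type lineage-negative marrow (6.75 ± 0.71) and NHD13 thymus (6.69 ± 0.30). Then came wild-type whole marrow (6.67 ± 0.34), CA10 whole marrow (6.64 ± 0.19), NHD13 whole marrow (6.59 ± 0.48), CA10 lineage-negative marrow (6.55 ± 0.18), NHD13 lineage-negative marrow (6.42 ± 0.65), NHD13 leukemic spleen (6.37 ± 0.92) and CA10 thymus (6.35 ± 0.48). Of the 13 steps in this order, 1 exceeded the spread between arrays, that from CA10 leukemic spleen to C57B6 marrow (1.78). The other neighbours did not differ beyond their spread.

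Klrd1, which lies near Klrk1 in the NK gene complex on chromosome 6 and whose product pairs with NKG2 proteins to form receptors for MHC class I, was higher in mean in CA10 leukemic spleen than in each other spleen group. Its signals there were 9.74, 9.85, 10.49, 10.94, 9.96 and 10.29, against 10.33, 8.61, 9.57, 9.06 and 9.21 in CA10 healthy spleen. It was 9.26 and 9.36 in wild-type spleen. All 6 leukemic arrays were above the CA10 healthy mean, but 2 were above the highest healthy array, which was healthy spleen 1. The difference in means was 0.85, and it was 1.25, with no overlap, without healthy spleens 1 and 3.

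Ncr1, an activating receptor restricted largely to NK cells, was spread widely. Its signals were 7.83, 7.29, 5.91, 9.42, 7.59 and 5.22 in CA10 leukemic spleen, against 5.69, 6.47, 6.54, 6.37 and 6.06 in CA10 healthy spleen. It was above the highest healthy array in 4 leukemic arrays and below the lowest in 1, with a difference in means of 0.98. Without healthy spleens 1 and 3 the Ncr1 difference was 0.91. Arrays 3 and 6 had the lowest Ncr1 of the leukemic group, and array 3 was also the lowest for Klrk1. Array 4 was the highest for both genes. Klrg1, an inhibitory receptor of mature NK and T cells, averaged 6.21 ± 0.40 in CA10 leukemic spleen and 6.52 ± 0.40 in CA10 healthy spleen (SD, n = 6 and 5). No leukemic array of Klrg1 lay above the highest healthy one and 1 lay below the lowest, but 5 lay below it without healthy spleens 1 and 3.

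**Figure D2:**
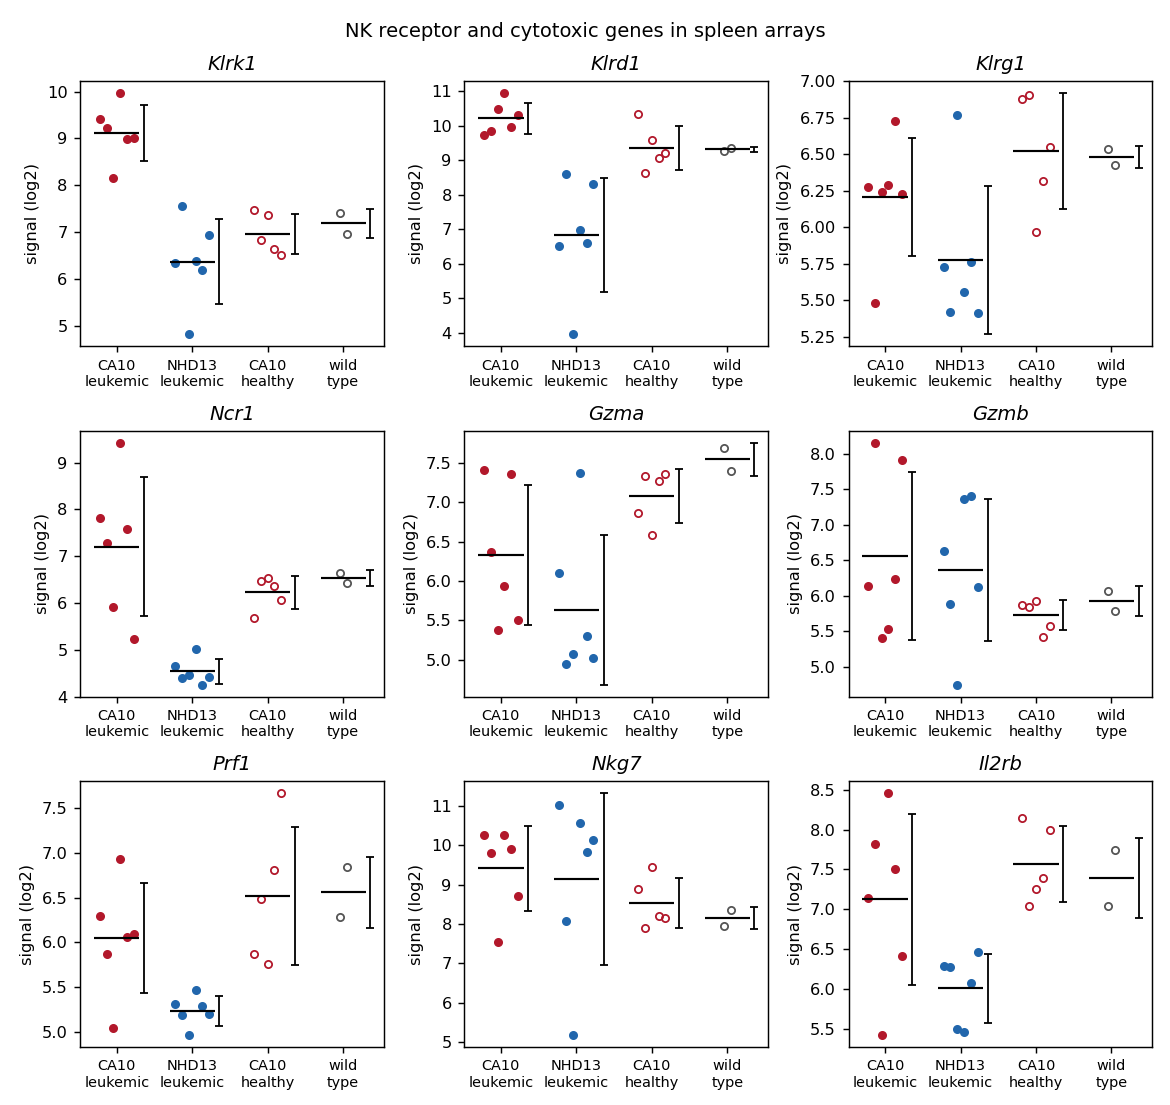
Log2 signal of the 9 genes (vertical axes, each with its own scale) on each spleen array, with CA10 leukemic, NHD13 leukemic, CA10 healthy and wild-type spleen from left to right. Points are arrays, lines means and bars SD. The CA10 leukemic and CA10 healthy groups are apart for Klrk1 and overlap for the other 8 genes.

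The effector genes did not move as 1 group. Gzma, a granzyme of NK cells and T cells, had signals of 7.41, 6.37, 5.37, 5.94, 7.36 and 5.51 in CA10 leukemic spleen, against 6.86, 7.34, 6.59, 7.27 and 7.37 in CA10 healthy spleen. Of the leukemic arrays, 4 were below the lowest healthy one, and the difference in means was -0.76 (-1.0 without healthy spleens 1 and 3). Gzmb, the apoptosis-inducing granzyme, had 6.13, 8.15, 5.40, 5.54, 6.24 and 7.92 in CA10 leukemic spleen, against 5.87, 5.85, 5.93, 5.43 and 5.58 in CA10 healthy spleen. Arrays 2 and 6 held its high values, 2.42 and 2.19 above the healthy mean, and the difference in means was 0.84 (0.95 without healthy spleens 1 and 3). Prf1 averaged 6.05 ± 0.62 in CA10 leukemic spleen and 6.52 ± 0.77 in CA10 healthy spleen (SD, n = 6 and 5), and no leukemic array was above the highest healthy one. The Prf1 difference was -0.47 with 1 leukemic array below the lowest healthy one, and -0.94 with 5 below it without healthy spleens 1 and 3.

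Nkg7, a membrane protein of cytotoxic granules, had signals of 10.27, 9.80, 7.55, 10.26, 9.91 and 8.71 in CA10 leukemic spleen, against 8.90, 7.90, 9.44, 8.21 and 8.16 in CA10 healthy spleen. It was above the healthy mean in 5 of 6 arrays and above the highest healthy array in 4, with a difference in means of 0.90 (1.33 without healthy spleens 1 and 3). The group overlapped with NHD13 leukemic spleen, where Nkg7 was 11.03, 8.07, 5.19, 10.55, 9.82 and 10.14. Nkg7 averaged 9.87 in C57B6, 9.69 in wild-type and 9.68 in NHD13 whole marrow, each above CA10 leukemic spleen (9.42). Healthy spleens 1 and 3, high in granule genes, were the highest healthy arrays for Nkg7. The part of myeloid cells in these Nkg7 values was not tested. Il2rb had 7.14, 7.82, 5.43, 8.46, 7.50 and 6.42 in CA10 leukemic spleen, against 8.14, 7.05, 7.25, 7.39 and 8.0 in CA10 healthy spleen, and 2 leukemic arrays were below the lowest healthy one. The difference in means was -0.44 (-0.35 without healthy spleens 1 and 3). Its other probe set averaged 7.14 ± 0.77 in CA10 leukemic spleen and 6.99 ± 0.38 in CA10 healthy spleen (SD, n = 6 and 5).

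Over the 9 members, 5 had a mean difference above 0 between CA10 leukemic and CA10 healthy spleen, and their median was 0.84, against 0.01 over all 15310 genes tested. Klrk1 was the 1 member without overlap, where 3.75% of all genes were higher and 1.12% lower without overlap. Without healthy spleens 1 and 3, Klrk1 and Klrd1 did not overlap, beside 12.8% of all genes higher and 6.49% lower. Nothing is read from these counts, since this contrast chose the members.

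Array by array, the difference of Klrk1 from the CA10 healthy mean was 2.46, 2.25, 1.19, 3.01, 2.04 and 2.05 in leukemic arrays 1 to 6. The median difference of the other 8 members in the same arrays was 0.35, 0.37, -0.65, 0.65, 0.39 and -0.36. Klrk1 was above the median of the others in each of 6 arrays. In arrays 1, 3 and 5 no other member differed by more than Klrk1, and in arrays 2, 4 and 6 there was 1 that did, Gzmb in arrays 2 and 6 and Ncr1 in array 4. In array 3, Klrk1 and Klrd1 were 1.19 and 1.13 above the healthy mean, while the other 7 members were below it. Across the 6 arrays the order of Klrk1 was shared by several members: array 3, the lowest for Klrk1, was also the lowest for 5 of the other 8 (Gzma, Gzmb, Prf1, Nkg7 and Il2rb), and array 4, the highest for Klrk1, was the highest for 4 of them (Klrd1, Ncr1, Prf1 and Il2rb). Klrk1 was thus above the CA10 healthy range on every leukemic array, and its lowest and highest arrays were also those of several, not all, of the other members.

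**Figure D3:**
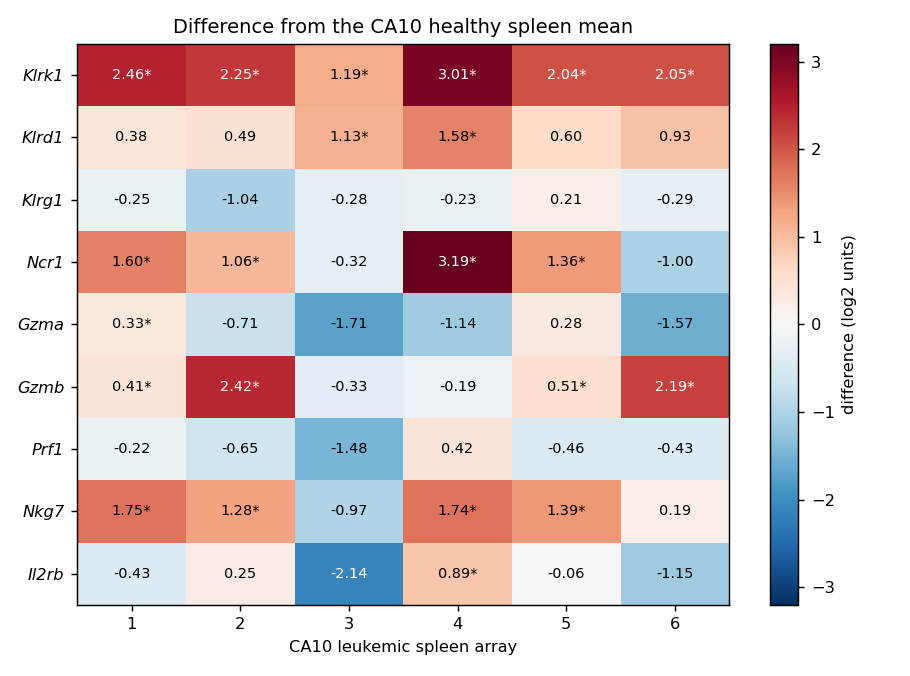
Difference of each CA10 leukemic spleen array (columns) from the CA10 healthy mean, in log2 units (colour and printed value), for the 9 genes (rows). A star marks a value above the highest CA10 healthy array. Klrk1 is starred in all 6 arrays and Klrg1 and Prf1 in none.

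Genes tied to NKG2D did not all share its pattern. Hcst averaged 8.27 in CA10 leukemic, 8.76 in NHD13 leukemic, 8.51 in CA10 healthy and 8.37 in wild-type spleen. Tyrobp, which myeloid cells also express, averaged 13.02 in CA10 leukemic and 12.24 in NHD13 leukemic spleen, against 11.94 in CA10 healthy and 11.46 in wild-type spleen. Of 10 adaptor and signalling genes, Tyrobp was the 1 that did not overlap between CA10 leukemic and CA10 healthy spleen (1.08 higher). Over all genes, 3.75% were higher and 1.12% lower without overlap in this contrast. Of 15 other NK and cytotoxic genes tested, none was apart in this contrast, and their median difference was 0.04 (0.16, and still none apart, without healthy spleens 1 and 3). The 14 tested genes that neighbour Klrk1 in the NK gene complex, Klrd1 among them, had a median difference of 0.66, against 0.01 over all genes, and none was apart. Without healthy spleens 1 and 3 the median was 0.80 and 5 were higher without overlap, beside 12.8% of all genes higher and 6.49% lower. Linear signals summed over all 19 listed neighbours on the array were 4565 to 8636 in CA10 leukemic spleen. They were 7751 in healthy spleen 1 and 2419 to 3351 in the other 4 healthy spleens. Against wild-type spleen 6 of the 14 tested neighbours were higher and 1 lower without overlap, beside 20.2% of all genes higher and 11.6% lower. The median there was 0.73, and Klrb1b (3.01), Clec7a (2.64) and Klrb1f (2.39) differed most. Clec7a averaged 10.99 in CA10 leukemic spleen and 11.62 in C57B6 whole marrow. Sums over the 19 neighbours were 2033 to 8196 in NHD13 leukemic spleen, which overlapped the range of CA10 leukemic spleen. The median difference of the 14 tested neighbours between NHD13 leukemic and wild-type spleen was 0.06. Only 2 of 9 NKG2D ligand genes were on the array, and ligand levels are not described.

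Markers of other cell types differed in the same contrast. Of 14 monocyte and macrophage markers, Clec4a3 (1.69), Cd68 (1.40) and Lyz2 (0.51) were higher without overlap. Of 14 T cell markers, Bcl11b (-1.90) and Cd4 (-1.0) were lower without overlap. Over all genes, 3.75% were higher and 1.12% lower without overlap. The median difference was 1.23 for the monocyte list and -0.90 for the T cell list, and it was -2.01 for 9 B cell markers and 2.31 for 6 myeloid granule genes, of which none was apart. Healthy spleens 1 and 3 were set aside for their granule and B cell signals. Without them the medians were 1.35, -1.28, -3.07 and 4.15, and 9, 7, 8 and 6 genes of these lists were apart in the direction of the median. A further 2 monocyte markers were lower without overlap. Beside these counts, 12.8% of all genes were higher and 6.49% lower without overlap. The B cell and granule counts follow from the choice of arrays, and nothing is read from them. Summed linear signals of the monocyte list were 24149 to 35129 in CA10 leukemic spleen and 15702 to 26513 in CA10 healthy spleen. T cell sums were 1408 to 3304 in CA10 leukemic spleen and 2737 to 7013 in CA10 healthy spleen. Sums over the 20 other NK and cytotoxic genes on the array were 1749 to 4801 in CA10 leukemic spleen. They were 1817 to 2340 in CA10 healthy spleen, so that the ranges overlapped. The part of any of these cells in the Klrk1 difference was not tested.

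Against NHD13 leukemic spleen, all 9 members had a higher mean in CA10 leukemic spleen. Klrk1 (2.75), Klrd1 (3.39) and Ncr1 (2.67) were higher without overlap, where 5.72% of all genes were higher and 5.15% lower. The other differences were Il2rb 1.12, Prf1 0.81, Gzma 0.69, Klrg1 0.43, Nkg7 0.28 and Gzmb 0.20, and the groups overlapped. The members' median was 0.81, against -0.02 over all genes. Against wild-type spleen, Klrk1 (1.94) and Klrd1 (0.90) were higher without overlap, where 20.2% of all genes were higher and 11.6% lower. The Gzma difference from wild type was -1.22, and the groups overlapped.

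NHD13 leukemic spleen, which the choice of members did not rest on, was tested against wild-type spleen with limma. Of the 9 members, 4 fell and none rose, beside 31.4% of all genes called, 12.3% that fell and 19.1% that rose. Klrd1 was 6.53, 8.60, 3.95, 6.96, 6.61 and 8.30 in NHD13 leukemic spleen, against 9.26 and 9.36 in wild-type spleen, and fell by 2.49 ± 0.79 (SE, adjusted p = 0.0235, limma). Ncr1 was 4.66, 4.41, 4.46, 5.02, 4.26 and 4.42 in NHD13 leukemic spleen, against 6.65 and 6.42 in wild-type spleen, and fell by 1.99 ± 0.67 (adjusted p = 0.0322, limma). Neither gene overlapped between the groups. NHD13 leukemic spleen 3 had a granule gene sum of 2248, against 22788 to 41375 in the other arrays of its group. Its monocyte marker sum was 4124, against 18368 to 30033. This array also held the lowest Klrd1, Klrk1 (4.82) and Nkg7 (5.19) of the group, and its part in the differences was not tested.

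Gzma was 6.10, 4.95, 5.07, 7.37, 5.29 and 5.03 in NHD13 leukemic spleen, against 7.69 and 7.40 in wild-type spleen, and fell by 1.91 ± 0.59 (adjusted p = 0.0199, limma). Prf1 averaged 5.24 ± 0.17 in NHD13 leukemic spleen and 6.56 ± 0.40 in wild-type spleen (SD, n = 6 and 2), and fell by 1.33 ± 0.42 (adjusted p = 0.0242, limma). Its other probe set, above the 40th percentile on 10 of 57 arrays, averaged 4.87 ± 0.21 in NHD13 leukemic spleen and 4.81 ± 0.15 in wild-type spleen. All 4 calls rest on both wild-type spleens: with either left out, no member passed. Without wild-type spleen 1 the adjusted p-values (limma) of Klrd1, Ncr1, Gzma and Prf1 were 0.121, 0.177, 0.145 and 0.0641, and without wild-type spleen 2 they were 0.138, 0.132, 0.0942 and 0.231. In a model of only these groups Klrd1 and Gzma did not pass (adjusted p = 0.119 and 0.0523, limma), nor did Prf1 as the mean of its probe sets (-0.63, adjusted p = 0.0633, limma).

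Klrk1 did not pass in NHD13 leukemic spleen (-0.82 ± 0.51, adjusted p = 0.238, limma). The other members that did not pass were Klrg1 (-0.71 ± 0.33), Gzmb (0.43 ± 0.69), Nkg7 (0.98 ± 1.09) and Il2rb (-1.38 ± 0.55, adjusted p = 0.0645, limma). The other Il2rb probe set did pass (-1.36, adjusted p = 0.0118, limma). The transcription factor gene Tbx21 (T-bet) fell by 1.82 ± 0.52 and the kinase gene Txk by 2.11 ± 0.50 (adjusted p = 0.0138 and 0.00422, limma), among 4 falls and 1 rise in 15 other NK and cytotoxic genes. All 9 B cell markers and 13 of 14 T cell markers fell as well. Over all genes, 12.3% fell and 19.1% rose in this comparison. T cell sums were 1214 to 1930 in NHD13 leukemic spleen and 4725 to 7344 in wild-type spleen, and the part of fewer lymphocytes in the 4 falls was not tested.

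**Figure D4:**
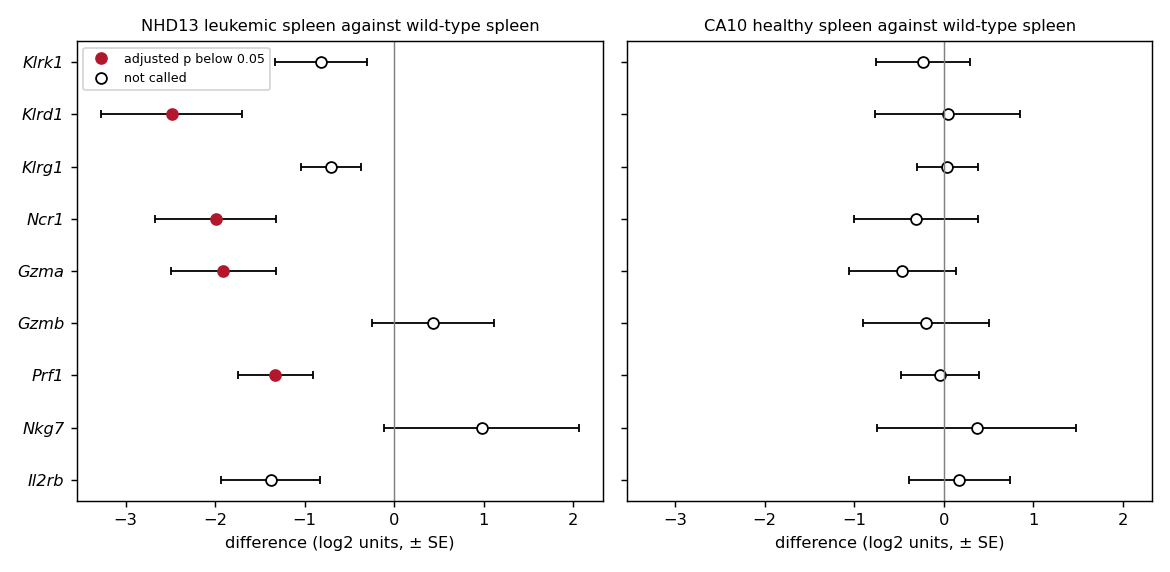
Difference of the 9 genes in log2 units with its SE (horizontal axis), for NHD13 leukemic against wild-type spleen (left) and CA10 healthy against wild-type spleen (right). Filled points passed the adjusted threshold of 0.05 in limma. Klrd1, Ncr1, Gzma and Prf1 are filled on the left and no gene on the right.

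In CA10 healthy spleen no member passed against wild-type spleen with limma, and none had an unadjusted p below 0.05. Klrk1 differed by -0.23 ± 0.53 there, and by -0.53 without healthy spleens 1 and 3. No gene of the 15310 passed in this comparison (0%). CA10 healthy and NHD13 leukemic spleen were set against the same 2 wild-type arrays.

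In marrow and thymus of healthy transgenic mice no member passed against wild type with limma, in any of 6 comparisons. Over all genes, none was called in CA10 tissues, and in NHD13 0.0588% were called in lineage-negative marrow (all lower), 1.18% in whole marrow (0.607% higher and 0.575% lower) and 0.764% in thymus (0.398% higher and 0.366% lower). In lineage-negative marrow, Nkg7 was the 1 member with an unadjusted p below 0.05 in each transgene, with differences of -0.97 ± 0.41 in CA10 and -1.58 ± 0.41 in NHD13 (adjusted p = 0.568 in NHD13, limma). The Nkg7 difference in NHD13 was -1.34 without array 3, which had the Gapdh value of 2.95 and a narrow range. In simulated data a log2 change of 1 was recovered for 1% (CA10) and 3% (NHD13) of 100 changed genes in lineage-negative marrow, and a change of 2 for 35% and 46%, so these comparisons could miss changes of that size. In whole marrow 4 members had such a p in CA10 and 3 in NHD13. CA10 whole marrows were all narrow arrays, and wild-type whole marrows 1 to 3 were wide and male and 4 to 6 narrow and female. Sex was inferred from whether the signal of Eif2s3y exceeded that of Xist. Against narrow wild-type marrows no member passed in CA10, and against wide ones 4 did, among them Klrd1 (-1.03), Klrg1 (1.08) and Il2rb (-1.09). On its other probe set Il2rb averaged 6.96 ± 0.05 in CA10 whole marrow and 6.84 ± 0.36 in wild-type whole marrow (SD, n = 3 and 6). NHD13 whole marrows were wide, and against wide wild-type marrows no member passed, while 4 did against narrow ones. Shares of all genes at an unadjusted p or against these other controls are not given. Nothing is therefore read from those member counts in whole marrow. In thymus 2 members had an unadjusted p below 0.05 in NHD13, Ncr1 (-0.81 ± 0.22, adjusted p = 0.113, limma) and Il2rb (-0.93 ± 0.36), and none in CA10. Both passed without CA10 thymus 3 and wild-type thymuses 2 and 6 (adjusted p = 0.0487 and 0.0432, limma). No member passed limma's F test of a difference of a transgene's effect between tissues, beside 0% of all genes for CA10 and 0.856% for NHD13; Gzma, Klrg1 and Nkg7 had unadjusted p-values of 0.0413, 0.0255 and 0.0350 for NHD13.

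Tissues of wild-type mice differed in these genes. Wild-type thymus was set against wild-type whole marrow with limma, where 49.8% of all genes were called, 25.6% higher and 24.2% lower. Gzma rose by 2.91 ± 0.49 (adjusted p = 4.52e-06) and Il2rb by 0.75 ± 0.31 (adjusted p = 0.0389), and Klrg1, Ncr1 and Nkg7 fell by 1.05 ± 0.23, 0.84 ± 0.33 and 1.99 ± 0.56. On its other probe set Il2rb averaged 6.93 ± 0.32 in wild-type thymus and 6.84 ± 0.36 in wild-type whole marrow (SD, n = 7 and 6). The Il2rb rise thus rests on 1 probe set. Gzma in the 7 wild-type thymuses was 5.55 at the lowest, 9.80 at the median and 10.06 at the highest. It averaged 9.09 ± 1.23 in CA10 thymus, 10.67 ± 1.56 in NHD13 thymus and 9.10 ± 1.63 in wild-type thymus, against 7.55 or less in the mean of each non-thymus group. Wild-type spleen and lineage-negative marrow gave no member called against whole marrow with limma, with 2 and 0 members at an unadjusted p below 0.05, beside 10.7% (7.64% higher and 3.08% lower) and 26.3% (14.9% and 11.3%) of all genes called. C57B6 marrow gave 1 call against the other wild-type marrows, Il2rb (0.70 ± 0.24, adjusted p = 0.0496, limma), beside 19.2% of all genes (14% higher and 5.2% lower), and its other probe set went the opposite way (-0.66, adjusted p = 0.0271, limma). The Il2rb call was lost with no filter, with the array set as a block and without C57B6 marrow 2 (adjusted p = 0.0995, limma).

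**Figure D5:**
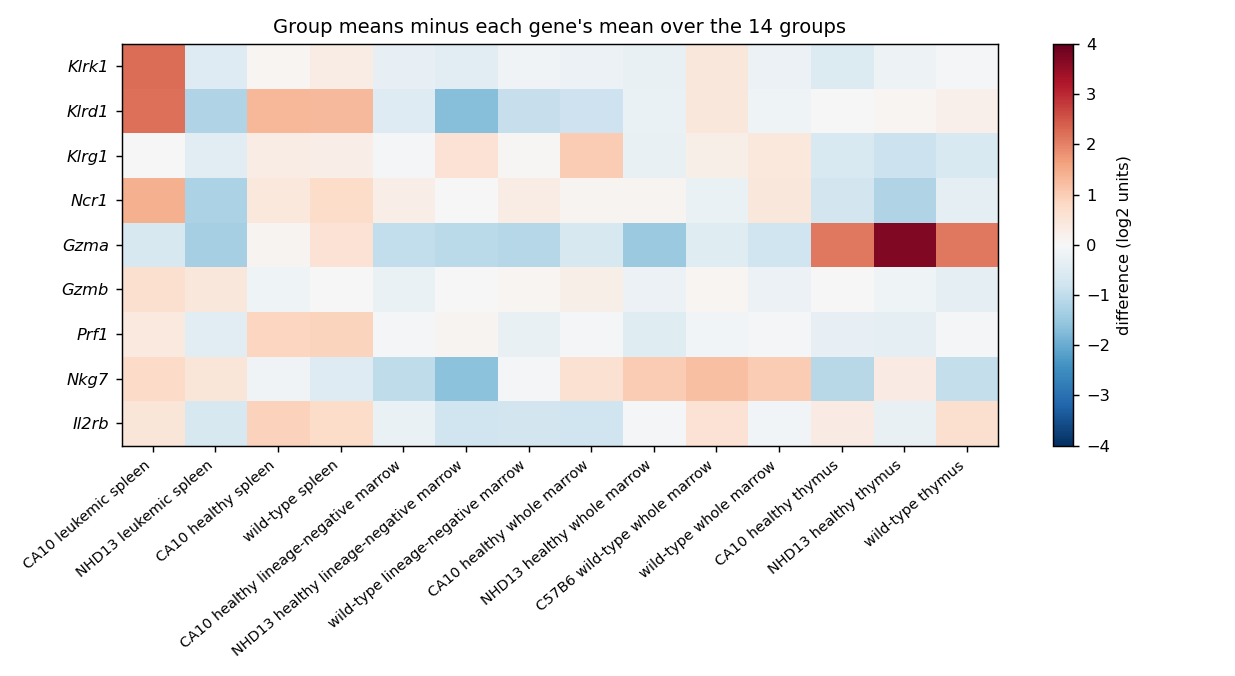
Mean of each of 14 groups (columns) minus the gene's mean over the groups, in log2 units (colour), for the 9 genes (rows). Klrk1 has its highest mean, 9.13, in CA10 leukemic spleen, and Gzma has its 3 highest means in the thymus groups.

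The genes whose group means were most like those of Klrk1 over the 14 groups were Klrb1b (Pearson r = 0.93), Slamf8 (0.89), Mycl (0.89), Cd209a (0.89) and Scand1 (0.88). This ranking rests largely on CA10 leukemic spleen, where the Klrk1 mean was 9.13, against 7.35 or less in each other group. It mostly lists genes high in that group, and no likeness elsewhere is read from it. Klrd1 (0.78) ranked 20 among all genes, Ncr1 (0.65) ranked 134 and Gzmb (0.55) 370. Il2rb (0.46), Prf1 (0.45), Nkg7 (0.34), Klrg1 (0.09) and Gzma (-0.07) were further away. Without CA10 leukemic spleen, over the 13 other groups, the nearest genes were Gm8369 (0.85), Klhl14 (0.84), Slc41a2 (0.84), Arrdc1 (0.83) and Polm (0.83), and of the members Klrd1 was at 0.72, Il2rb at 0.65 (rank 235), Prf1 at 0.56 (rank 606), Ncr1 at 0.40 (rank 1774) and Gzmb at -0.13 (rank 8855). The points share tissues and array sets, and no test is given.

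Klrb1b, an inhibitory lectin-like receptor gene of the NK gene complex, was 7.30, 6.87, 9.15, 6.95, 5.51 and 9.11 in CA10 leukemic spleen, against 6.38, 3.80, 6.62, 4.21 and 4.55 in CA10 healthy spleen. Its highest arrays, 3 and 6, were the ones lowest in Ncr1. Healthy spleens 1 and 3, high in granule genes, were also the highest healthy arrays for Klrb1b and Klrk1. Cd209a, a dendritic cell gene, averaged 10.14 in CA10 leukemic spleen, and the highest mean of another group was 7.98, in CA10 healthy spleen. It is 1 of a list of 12 dendritic cell genes, of which none was apart between these 2 groups (median difference 0.51). Without healthy spleens 1 and 3, 2 of the 12 were higher and 1 lower without overlap, beside 12.8% and 6.49% of all genes. Summed signals of the list overlapped, 15557 to 41601 in CA10 leukemic and 20791 to 36616 in CA10 healthy spleen.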

How the data were processed

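RNA was measured on Affymetrix mouse arrays from 100 ng of RNA, per the labels' protocols. The authors deposited log2 values; the submitters' processing notes name RMA. Its version and a genome build were not given in the sources used here. Probe sets were named from the platform annotation, and 931 with several genes and 9106 with none were left out. For each gene the probe set of highest average signal was used. Genes above the 40th percentile of an array on at least 3 arrays, 15310 in all, were tested.

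Groups followed the labels. Spleen, thymus and each marrow had a limma model of its own (version 3.58.1, R 4.3.3, lmFit and eBayes) with 1 mean per group, and comparisons between tissues and F tests used all 57 arrays. Adjusted p-values are Benjamini-Hochberg over every gene in the fit, called below 0.05. The models were tested on simulated data, where a log2 change of 1 was recovered for 58% of 100 changed genes when NHD13 leukemic spleen was set against wild type, and for 1% and 3% in CA10 and NHD13 lineage-negative marrow.

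The members and gene lists were chosen with earlier results of these data known. Named genes were the 9 members, up to 3 genes per list with the smallest adjusted p or, where untested, the largest difference without overlap, and the 5 genes most correlated with Klrk1. Some context genes (Hcst, Tyrobp, Klrb1b) were given by array or group mean after their values were seen. In lineage-negative marrow same-numbered arrays of transgenic and wild-type mice correlated at 0.20 to 0.70 (CA10) and 0.21 to 0.74 (NHD13). Array 3 had a narrow range in each of these groups, and its part in the correlations was not tested. Pairing of arrays is not in the labels. The alternatives were other filters, probe set rules, normalization, models, covariates, a replicate block, other control marrows and each array left out. Leaving out arrays that stood apart was chosen after seeing the data.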

Additional observations from a re-analysis of the deposited data

Results flagged for a closer look

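Single arrays stood far from the rest of their group for 6 of the 54 gene and group sets of 4 to 10 arrays, where chance gives about 1 in 20. Klrk1 was 6.16 in wild-type thymus 6, against 6.75 to 7.09 in the other wild-type thymuses. The same array had Klrd1 at 6.63 (others 8.10 to 8.87) and Nkg7 at 6.35 (others 7.61 to 8.24), and it was the 1 thymus array with a narrow range of values; the part of that range in these values was not tested. Gzma was 5.55 in wild-type thymus 2 (others 8.74 to 10.06), the array with the lowest T cell marker sum of the thymuses. Gzma was 7.44 in wild-type whole marrow 6 (others 5.63 to 6.17). Klrg1 was 6.77 in NHD13 leukemic spleen 3 (others 5.41 to 5.76), the array with the lowest monocyte marker sum (4124) of all spleens.

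Klrd1 differed in opposite directions from the 2 wild-type spleens, by 0.90 in CA10 leukemic and by -2.49 in NHD13 leukemic spleen, on every array of each group. Both comparisons share the wild-type arrays, and the difference between them was not tested.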

How the results depend on the processing

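The Klrk1 difference between CA10 leukemic and CA10 healthy spleen kept its sign and moved by less than the spread under quantile normalization and with each array left out. Klrk1 has 1 probe set, so the mean of probe sets could not change its value. With 1 array left out the number of members without overlap was 1 to 2. It was 2 without the CA10 healthy spleens high in granule genes, a choice made after seeing the data. Against wild-type and NHD13 leukemic spleen it was 2 to 3 and 3 to 4 with 1 array left out.

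In NHD13 leukemic spleen the number of members called was 0 to 5 with 1 array left out, and the 0 came without either wild-type spleen. In CA10 whole marrow it was 4 with wild-type marrows 1 to 3 and 3 with C57B6 marrows as control, and in NHD13 whole marrow 4 with wild-type marrows 4 to 6. In NHD13 thymus it was 2 without the thymuses that stood apart. In C57B6 marrow it was 0 with no filter, the mean of probe sets, quantile normalization, only the 2 groups, all 57 arrays, trend and robust settings, sex or the array set, 2 at the 60th percentile, and 0 to 4 with 1 array left out. Il2rb was reversed there on its other probe set (-0.66). Wild-type spleen against whole marrow gave 4 with only the 2 groups and 1 with the array set as a block. Wild-type thymus gave 3 with that block and 3 to 5 with 1 array left out, and lineage-negative marrow 1 with only the 2 groups. The causes were not tested, and shares of all genes called under these alternatives are not given.

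With the replicate block the number called was 6 in CA10 whole marrow, 0 in C57B6 marrow and 1 in wild-type spleen against whole marrow. Same-numbered arrays did not all correlate in these comparisons. In lineage-negative marrow, where they did, the block changed no call. Over all members, comparisons and alternatives, 45 calls were lost and 42 gained, 1 reversed and 1 value moved further. The other 2575 values kept their side of the threshold or moved by less than the spread. Of the member counts under these alternatives, 273 were equal or within a ratio of 1.5 of the main count, and 35 moved.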
